A study of Mus musculus with 15 samples.

Results

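The data describe the striatum of unexposed mouse pups at postnatal day 14, taken as 4 of the 15 RNA sequencing libraries of a study in which pregnant mice breathed aerosols and the striatum of their pups was profiled. The 4 libraries were chosen by their label alone: C57Bl/6J striatum, labelled as untreated, numbered control 1 to control 4. The other 11 libraries came from pups of exposed dams and were not used. The labels give no sex, litter, dam or batch, do not say whether the dams of the control pups received a sham aerosol, and do not say whether each library is a separate animal. The spread between the 4 libraries may therefore be technical in part. Each library holds the same 15569 genes, and with 1 group there is no between-group test: levels, ranks and spread are given as descriptions.

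The striatum is the input nucleus of the basal ganglia. Most of its neurons are GABA-releasing medium spiny neurons, which receive glutamate from cortex and thalamus and dopamine from the midbrain. Direct-pathway neurons carry the dopamine D1 receptor and the peptides substance P and dynorphin, and indirect-pathway neurons carry the D2 receptor, an adenosine receptor and enkephalin. At this age the mouse striatum is still maturing: pups are about to open or have just opened their eyes, myelin is being laid down and receptor subunits are changing from juvenile to adult forms.

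The libraries held 9019371, 9109590, 8690925 and 9804609 reads assigned to genes in control 1 to 4, and 0 to 4 genes per library had no read. Levels are given as TPM, transcripts of a gene per 1e+06 transcripts, computed here from the deposited normalised signal and the length of all annotated exons of a gene, so that genes can be compared within a library. A gene with many alternative exons is thereby given a long length and a low level: with the longest transcript in place of all exons, 75 of 446 named or listed genes moved by more than 1.5 times, and with the median transcript length 296 did. The median gene stood at 10.8 TPM. Values after ± are standard deviations over the 4 libraries, and a rank of 1 is the highest of 15569 genes. Across the 4 libraries, 997 genes, or 6.40% of those measured, averaged at least 100 TPM.

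Of 5 genes that define the tissue and its main cell types, the markers of medium spiny neurons and of myelin were among the highest 3% of genes, and the astrocyte filament gene was nearer the middle. Ppp1r1b, on chromosome 11 at 98348404 to 98357796 of GRCm38 (plus strand), encodes DARPP-32, the dopamine-regulated phosphatase inhibitor of medium spiny neurons. It had 902, 1044, 900 and 886 TPM in control 1 to 4, which ranks it 49th at 933 ± 74.5 TPM. Drd1 lies on chromosome 13 at 54051183 to 54055705 (minus strand), and Drd2 on chromosome 9 at 49340627 to 49408177 (plus strand). The D1 receptor gene had 232, 211, 252 and 236 TPM (rank 347), and Drd2 had 246, 258, 308 and 290 TPM (rank 284). Mbp, the myelin basic protein of oligodendrocytes on chromosome 18 at 82475146 to 82585637 (plus strand), had 665, 771, 505 and 692 TPM and ranked 73rd. Its lowest library was control 3. Gfap, the intermediate filament of astrocytes on chromosome 11 at 102887336 to 102900912 (minus strand), had 19.99, 25.1, 20.2 and 18.6 TPM and ranked 4942nd. The levels of Gfap did not overlap those of the other 4 markers in any library.

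**Figure D1:**
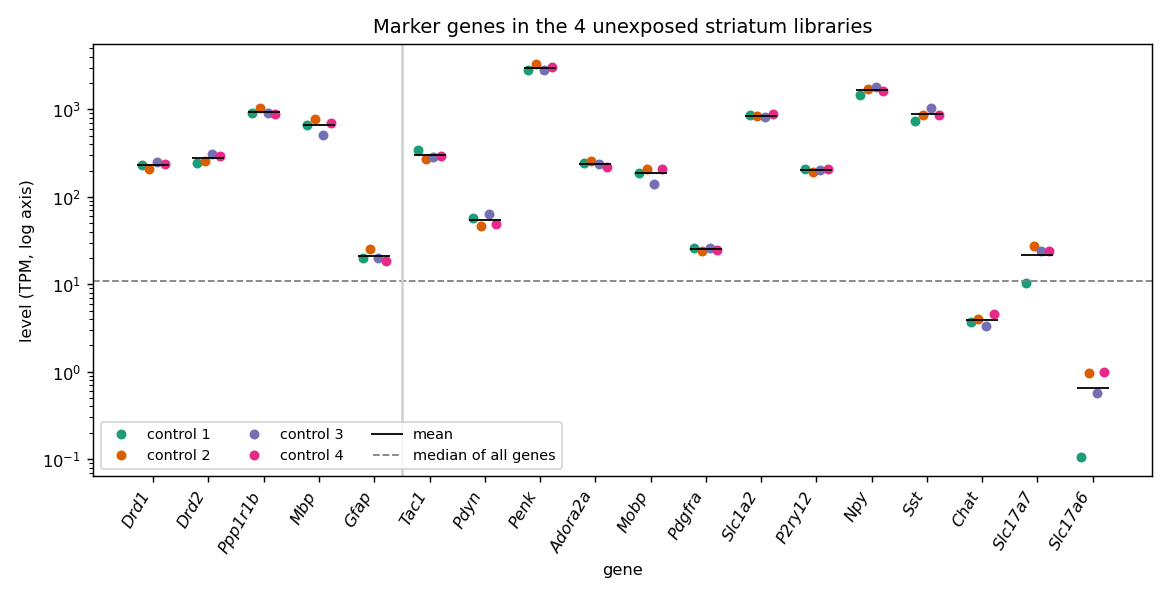
Level in TPM (log axis) of the 5 defining markers, left of the grey line, and of further marker genes to its right, with a coloured point per control library, a black bar for the mean and a dashed line at the median of all genes (10.8 TPM). Drd1 and Drd2 lie between 211 and 308 TPM, Gfap lies between 18.6 and 25.1 TPM, and Slc17a7 and Slc17a6 are lowest in control 1 (Slc17a6 at 2 reads).

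Genes shared by both kinds of medium spiny neuron stood far above the typical gene. All 26 of 26 listed genes were in the table, with a median of 196 TPM against 10.8 TPM over all genes and a median percentile of 97.3. At least 100 TPM was reached by 20 of the 26, against 6.40% of all genes. Gng7, a G protein gamma subunit that couples dopamine and adenosine receptors to adenylyl cyclase, had 1356, 1447, 1571 and 1432 TPM in control 1 to 4 and differed little between libraries. Rasd2, the striatal small GTPase Rhes, averaged 519.6 ± 39.5 TPM. Pde10a, the phosphodiesterase that breaks down cyclic nucleotides in these cells, averaged 463 ± 20.4 TPM. The lowest of the list was Rasgrp2, a Rap guanine nucleotide exchange factor, at 28.7 ± 3.72 TPM. None of the 26 had a highest library at least 2 times its lowest, which 1110 of all genes did, or 7.13% (596 without control 2). All 26 varied beyond counting error (chi-square homogeneity test on the recovered reads, Benjamini-Hochberg adjusted over 15569 genes), against 4980 genes or 32.0% of all (2294 without control 2). Well-read genes pass that test at small differences: the median coefficient of variation of the list was 7.47%, below the 11.6% of all genes. Spread falls with signal, so all genes are not a like comparison. All 26 genes lie in the class with the highest signal, with a median of 7.34%, or the class below it, with 7.83%. In these classes 0.154% and 0.277% of genes had a highest library at least 2 times the lowest. The list thus varied about as much as other genes of its signal. In bulk tissue a lower level can mean fewer cells of a type or less RNA per cell, and the data cannot tell these apart.

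Markers of the output pathways were led by the enkephalin gene. Penk, whose product is the opioid peptide precursor of indirect-pathway neurons, had 2828, 3342, 2808 and 3086 TPM and ranked 11th of all genes. Tac1, the substance P precursor of direct-pathway neurons, had 345, 274, 288 and 296 TPM. Within each library Tac1 was the lower, with a mean log2 ratio of Tac1 over Penk of -3.33 ± 0.24, and the direction was the same in 4 of 4 libraries. The size depends on the length used, the mean ratio being -2.72 with the longest transcript and -2.27 without length. An exact sign-flip test over 4 libraries cannot reach a p of 0.05, so ratios within libraries are given without a test. Adora2a, the adenosine receptor gene of indirect-pathway neurons, had 244, 255, 236 and 219 TPM. Pdyn, the dynorphin precursor of direct-pathway neurons, had 56.7, 46.0, 64.3 and 49.5 TPM.

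The receptors were closer to each other than the peptides. The log2 ratio of Drd1 over Drd2 was -0.08, -0.29, -0.29 and -0.29 in control 1 to 4, a mean of -0.24 ± 0.11. The direction depends on the length correction: on the deposited signal without it the ratio was 0.27, with Drd1 the higher. Of 10 direct-pathway genes, 3 reached 100 TPM (Tac1, Drd1 and Chrm4) and the median was 36.5 TPM. Chrm4 encodes the muscarinic M4 receptor, and it averaged 128 ± 6.32 TPM. Of 9 indirect-pathway genes in the table, 3 reached 100 TPM (Penk, Drd2 and Adora2a) and the median was 18.8 TPM. The orphan receptor gene Gpr6 of the indirect pathway averaged 93.4 ± 7.63 TPM. The transcription factors of the 2 pathways were at like levels, with Isl1 (direct) at 18.7 ± 0.600 TPM and Sp9 (indirect) at 18.8 ± 3.90 TPM. Sp9 was lowest in control 2, at 13.3 TPM.

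Promoter windows of the receptor genes Gpr6 and Drd1 and of the interneuron peptide genes Sst and Npy are given because the cyclic AMP pathway, which the receptors of Drd1 and Adora2a drive, acts on transcription through the sequence TGACGTCA, the cAMP response element. The windows are the 250 bases before the RefSeq transcript start (RefSeq annotation of GRCm38.p6). They are printed on the strand named for each gene, from 5′ to 3′. Matches to 4 motifs, each searched on both strands, are in capitals. The motifs are the cAMP response element, the TATA box (TATAAA), the GC box of Sp1 factors (GGGCGG) and the box named after its letters CCAAT. Sst is read from chr16:23890845-23891094 (minus strand), Gpr6 from chr10:41072291-41072540 (minus strand), Drd1 from chr13:54055659-54055908 (minus strand) and Npy from chr6:49822460-49822709 (plus strand).
Sst: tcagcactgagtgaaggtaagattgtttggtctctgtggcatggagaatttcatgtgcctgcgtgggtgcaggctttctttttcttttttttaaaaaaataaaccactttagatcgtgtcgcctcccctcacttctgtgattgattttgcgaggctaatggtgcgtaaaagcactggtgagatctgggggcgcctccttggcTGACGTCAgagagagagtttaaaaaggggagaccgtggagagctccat
Gpr6: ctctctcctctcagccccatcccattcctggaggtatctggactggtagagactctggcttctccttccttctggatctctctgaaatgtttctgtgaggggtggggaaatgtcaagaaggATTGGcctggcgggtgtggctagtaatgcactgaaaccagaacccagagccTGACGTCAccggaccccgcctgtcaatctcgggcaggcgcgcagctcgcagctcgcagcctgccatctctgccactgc
Drd1: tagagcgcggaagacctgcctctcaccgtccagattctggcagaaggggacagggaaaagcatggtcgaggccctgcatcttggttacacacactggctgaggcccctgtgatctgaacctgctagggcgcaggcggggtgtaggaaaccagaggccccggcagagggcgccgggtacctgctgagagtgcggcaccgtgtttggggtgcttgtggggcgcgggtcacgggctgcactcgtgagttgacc
Npy: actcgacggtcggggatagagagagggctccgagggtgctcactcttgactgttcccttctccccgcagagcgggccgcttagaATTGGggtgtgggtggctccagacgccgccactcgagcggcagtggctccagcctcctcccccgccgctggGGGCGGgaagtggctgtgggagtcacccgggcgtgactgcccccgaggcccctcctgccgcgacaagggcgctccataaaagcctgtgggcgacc
The cAMP response element begins 48 bases before the RefSeq start of Sst and 78 bases before that of Gpr6. The windows of Drd1 and Npy hold no match to it, and that of Drd1 holds none of the 4 motifs. A CCAAT box, read as ATTGG on this strand, lies in the Gpr6 and Npy windows, and a GC box in the Npy window. Among 10930 genes with a window, the cAMP response element was found in 2.79%, the TATA box in 6.28%, the GC box in 59.3% and the CCAAT box in 36.1%. The element was in 32 of 627 genes with at least 100 TPM (5.10%), and in 23 of the 1093 genes with the lowest levels. Of 315 listed genes with a window it was in 12, or 3.81%, among them the secretory granule genes Scg2 (178 TPM) and Chgb (130 TPM) and the tyrosine hydroxylase gene Th (11.6 TPM). It was in 0 of 22 genes shared by medium spiny neurons, 0 of 8 direct-pathway genes and 1 of 7 indirect-pathway genes, Gpr6. A match of letters is a description, not a binding site.

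The machinery that carries dopamine and adenosine signals inside medium spiny neurons was as high as the cell markers. Of 28 listed second-messenger genes, 22 reached 100 TPM, and the median was 236 TPM against 10.8 TPM over all genes. Gnal, which encodes the olfactory-type stimulatory G protein alpha subunit that replaces the common one in striatum, had 388, 383, 441 and 387 TPM. Gnas, the gene of that common subunit, had 139, 139, 175 and 161 TPM. The log2 ratio of Gnal over Gnas averaged 1.38 ± 0.10, above 0 in 4 of 4 libraries. Of the exon bases of Gnas, 22.0% overlap exons of other annotated genes. Ppp3r1, the regulatory subunit of calcineurin, averaged 879 ± 16.4 TPM. Rgs4, a brake on G protein signalling, averaged 712 ± 60.1 TPM. Adcy5, the main striatal adenylyl cyclase, averaged 278 ± 20.7 TPM. The lowest was Pde2a, a phosphodiesterase, at 3.84 ± 0.547 TPM, with 64.3% of its exon bases overlapping another gene. None of the 28 genes differed 2-fold between libraries.

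Striatal transcription factors were present at lower levels than the signalling genes. Of 19 listed, 6 reached 100 TPM, and the median was 38.8 TPM. Rarb, the retinoic acid receptor beta of striatal projection neurons, had 230.1, 199.8, 230.1 and 227 TPM, with 38.4% of its exon bases overlapping other genes. Its partner Rxrg averaged 182 ± 25.9 TPM. Foxp1, a forkhead factor of medium spiny neurons, averaged 148 ± 13.4 TPM, and its relative Foxp2 averaged 18.7 ± 2.03 TPM. The lowest was Sp8, a zinc finger factor of newborn neurons, at 1.60 ± 1.17 TPM. By deposited signal, on which libraries are ordered for such counts, control 2 was the lowest library for 13 of the 19 genes, where 30.7% of all genes are lowest in control 2.

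**Figure D2:**
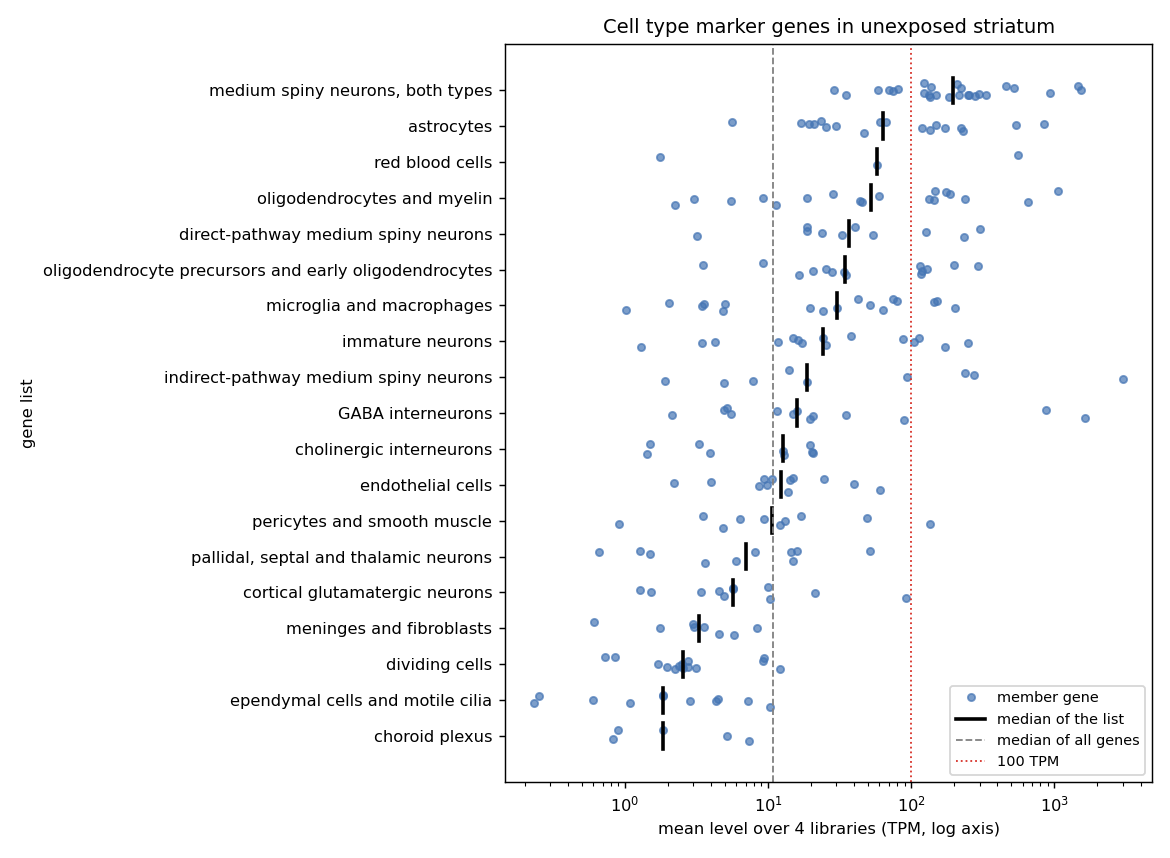
Mean level over the 4 control libraries (TPM, log axis) of each member gene (points) of 19 cell type lists, ordered by their median (black line), with the median of all genes (dashed, 10.8 TPM) and 100 TPM (dotted). Genes of medium spiny neurons have the highest median, 196 TPM, and choroid plexus and ependymal genes the lowest, 1.85 and 1.86 TPM.

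Among GABA interneuron genes, 2 peptide genes were among the highest in the tissue, and the others in the table lay between 2.15 and 88.8 TPM. Npy, the neuropeptide Y gene of a class of GABA interneurons, had 1457, 1701, 1811 and 1621 TPM and ranked 22nd. Sst, the somatostatin gene of the same class, had 739.5, 864, 1033 and 872 TPM and ranked 54th. Both were lowest in control 1 and highest in control 3 in TPM. On the deposited signal Npy was highest in control 2, at 3592 against 3555 in control 3. Nos1, the nitric oxide synthase of these cells, averaged 34.8 ± 2.67 TPM. The median of the 13 of 16 GABA interneuron genes in the table was 15.9 TPM, and those of the parvalbumin, calretinin and VIP classes (Pvalb, Calb2 and Vip) were not analysed here. Cck, the cholecystokinin gene, had 54.5, 124, 75.7 and 101 TPM and was the 1 member that differed 2-fold, as 7.13% of all genes did. Cholinergic interneurons had all 9 of 9 genes in the table, none at 100 TPM, with a median of 12.8 TPM. Their choline acetyltransferase gene Chat averaged 3.92 ± 0.535 TPM and the vesicular acetylcholine transporter gene Slc18a3 averaged 20.7 ± 1.93 TPM.

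Of 11 cortical glutamatergic genes in the table none reached 100 TPM, and the median was 5.72 TPM against 10.8 TPM over all genes. The place of the list depends on the length correction: its median percentile was 32.9 per length and 53.2 on the deposited signal without length. The highest of the list, Nptxr, a receptor of neuronal pentraxins, averaged 92.2 TPM. Slc17a7, the vesicular glutamate transporter of cortical neurons, had 10.5, 27.0, 24.2 and 23.8 TPM. Tbr1, a factor of cortical projection neurons, had 4.41, 11.3, 11.6 and 12.8 TPM. Control 1 was the lowest library for 9 of the 11 genes, against 25.4% of all genes. The mean log2 deviation of the list from its 4-library level was -0.62 in control 1, against 0.27, 0.22 and 0.13 in control 2 to 4. A highest library at least 2 times the lowest was seen for 6 of the 11 cortical genes, and for none without control 1, where the shares over all genes were 7.13% and 4.91%. As control 1 was already the lowest library for most of them, leaving it out lowers the count by construction. Against the striatal vesicular GABA transporter Slc32a1, which had 185, 184, 198 and 173 TPM (24.9% of its exon bases overlap another gene), Slc17a7 had a mean log2 ratio of -3.20 ± 0.64, which was -2.39 with the longest transcript and -2.25 without length. Per length, the ratio was -4.14 in control 1 and between -3.03 and -2.76 in the other libraries. How much cortex each dissection held was not tested. A thalamic gene was lower still: Slc17a6, the vesicular glutamate transporter of thalamic neurons, had 0.107, 0.973, 0.568 and 0.978 TPM. These levels rest on 2, 19, 10 and 20 reads in control 1 to 4. The 10 pallidal, septal and thalamic genes had a median of 7.02 TPM.

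Myelin genes were high and varied more than medium spiny neuron genes, with a median coefficient of variation of 18.4% against 7.47%. All 18 oligodendrocyte genes were in the table with a median of 52.4 TPM, and 8 reached 100 TPM. Cldn11, the tight junction protein gene of myelin, averaged 236 ± 31.9 TPM. Mobp, a myelin protein made late, had 186, 208, 141 and 209 TPM. Opalin, a marker of mature oligodendrocytes, had 11.2, 16.1, 5.73 and 12.8 TPM. Control 3 was the lowest library for 14 of the 18 genes, where 23.6% of all genes are lowest in control 3. The mean log2 deviation of the list was -0.36 in control 3, against 0.00, 0.19 and 0.17 in control 1, 2 and 4. Myrf, the transcription factor that switches on myelin genes, did not follow: its highest library was control 3, at 10.6 TPM.

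Precursor genes moved less than myelin genes. The 14 genes of oligodendrocyte precursors and early oligodendrocytes had a median of 34.6 TPM and none differed 2-fold, against 7.13% of all genes. At a mean signal of 100 to 500 that share was 0.857%. Pdgfra, the growth factor receptor of precursors, had 26.0, 24.3, 26.2 and 24.4 TPM. Gpr17, a receptor of committed precursors, averaged 128 ± 11.6 TPM, and Bcas1, expressed as myelination begins, averaged 118.5 ± 5.42 TPM.

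Astrocyte genes had the second highest median of the 19 cell type lists, while Gfap itself averaged 21.0 ± 2.85 TPM. Of 18 genes, 8 reached 100 TPM, and the median was 64.0 TPM. Slc1a2, the main astrocytic glutamate transporter, had 861, 835, 821 and 883 TPM. Apoe, the lipid carrier secreted by astrocytes and microglia, had 512, 641, 530.5 and 485.5 TPM. Glul, which turns glutamate into glutamine, averaged 229 ± 11.6 TPM, and the water channel gene Aqp4 averaged 60.7 ± 2.08 TPM. The lowest was Aldh1l1, a folate enzyme used as a pan-astrocyte marker, at 5.56 ± 1.17 TPM. Mbp exceeded Gfap in every library, with a mean log2 ratio of 4.96 ± 0.24 per length and 5.97 without length.

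Microglia and blood vessel genes shared a library in which they were highest. The 17 microglia genes had a median of 30.4 TPM, and 3 reached 100 TPM. P2ry12, the purinergic receptor of resting microglia, had 207, 190, 201 and 210 TPM, and did not share the pattern. C1qb, a complement component, had 130, 187, 149 and 137 TPM. Control 2 was the highest library for 15 of 17 microglia genes, 13 of 18 astrocyte genes, 10 of 12 endothelial genes and 8 of 10 pericyte genes, against 31.5% of all genes. The mean log2 deviation of the microglia list was 0.30 in control 2, against -0.18, 0.00 and -0.11 in control 1, 3 and 4. Cldn5, the tight junction gene of brain endothelium, averaged 60.4 ± 6.70 TPM. Rgs5, of pericytes, averaged 135 ± 9.23 TPM.

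Haemoglobin RNA was plentiful, and its source was not tested. Hbb-bs, the adult beta globin gene, had 545, 730, 442 and 502 TPM, and 3 of 6 red blood cell genes were in the table. Alas2, the haem synthesis enzyme of red cell precursors, averaged 1.76 ± 0.592 TPM. Markers of the ventricle lining were low. The 11 ependymal genes had a median of 1.86 TPM and the 5 of 10 choroid plexus genes in the table one of 1.85 TPM. Control 2 was the lowest library for 11 of 11 ependymal genes, against 30.7% of all genes. Only 3 of the 11 varied beyond counting error. Foxj1, which directs motile cilia, had 5.48, 2.64, 4.45 and 4.83 TPM and was not among them (homogeneity test, adjusted p 0.083). Ttr, the transthyretin gene that choroid plexus expresses at very high levels, had 0.243, 2.80, 1.03 and 16.7 TPM. Ttr was thus highest in control 4, with 75 reads. Its order among control 1 to 3 rests on few reads (1, 12 and 4).

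Genes of immature neurons varied most among the neuronal lists. Of 15 genes, 9 had a highest library at least 2 times the lowest, against 7.13% of all genes, and the median coefficient of variation was 29.6%. Dcx, the microtubule protein of migrating neurons, had 30.7, 14.0, 31.5 and 25.8 TPM. Dlx1 and Dlx2, homeobox genes of young GABA neurons, had 15.5, 4.25, 12.7 and 14.8 TPM and 21.0, 6.20, 17.1 and 20.3 TPM in control 1 to 4. Control 2 was the lowest library for 12 of 15 genes, and the list deviated by -0.62 in control 2 against 0.23, 0.23 and 0.17 in control 1, 3 and 4. Dividing cell genes did the same: 12 of 14 were lowest in control 2, and the deviations were -0.54 in control 2 against 0.21, 0.23 and 0.10. Mki67, a marker of cycling cells, averaged 12.03 ± 2.92 TPM. Without control 2 none of the immature neuron, dividing cell or ependymal genes differed 2-fold, against 9, 5 and 7 genes with it. Over all genes, 596 or 3.83% differed 2-fold without control 2. Leaving out a library already seen as lowest lowers such counts by construction. Of the 3 lists, 13 of 15, 7 of 14 and 3 of 11 genes varied beyond counting error. Low-signal genes often differ 2-fold: over all genes, 37.5% did at a mean signal under 20 and 15.5% at 20 to 50. Ependymal cells, young neurons and dividing cells occur in the wall of the lateral ventricle, which borders the striatum and holds the subventricular zone. The lists do not show where the cells lay. How much of that wall each dissection took was not tested. Nnat, an imprinted gene of young neurons and ependyma, had 251, 176, 339 and 235 TPM, again lowest in control 2.

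**Figure D3:**
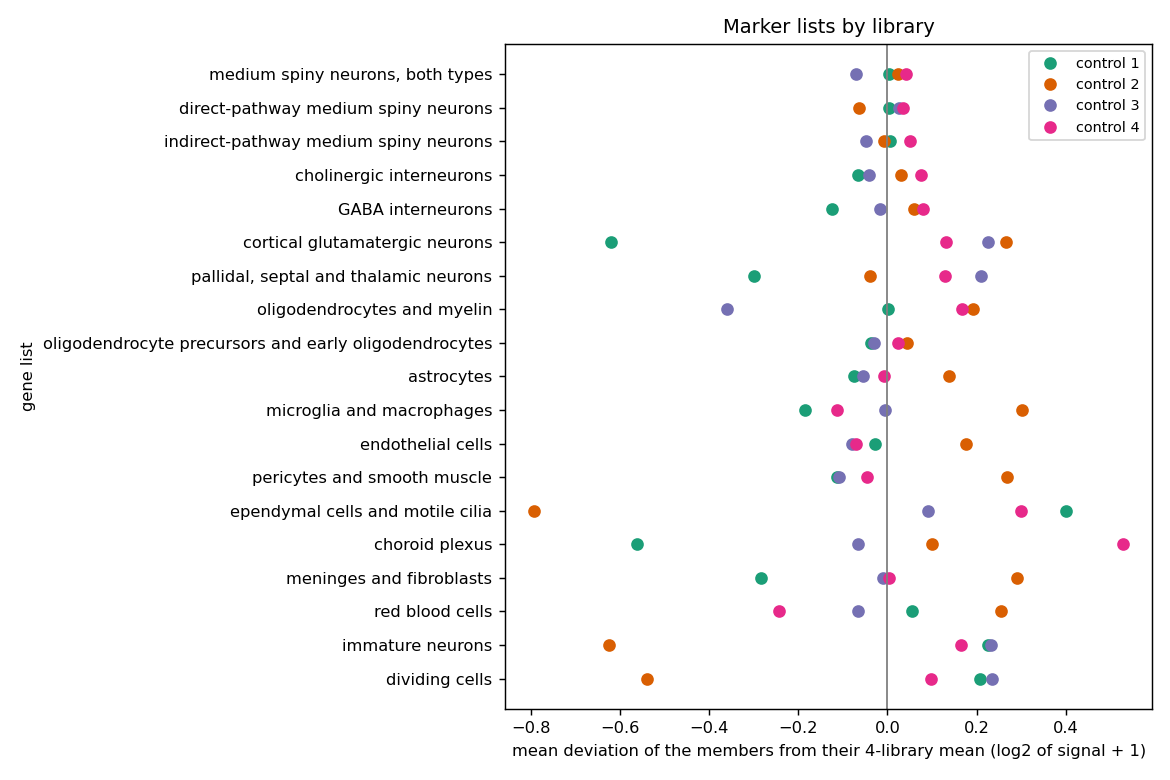
Each row is a cell type list and each coloured point a control library. The horizontal axis gives the mean deviation of the member genes from their own mean over the 4 libraries, on a log2 scale of signal + 1. Control 2 is low for ependymal, immature neuron and dividing cell genes (-0.79, -0.62 and -0.54), control 1 for cortical genes (-0.62) and control 3 for myelin genes (-0.36), while medium spiny neuron genes stay within 0.07 of 0.

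Of the dopamine genes, Drd1 and Drd2 were high, and the 9 genes in the table for making, moving and clearing dopamine had a median of 11.8 TPM, against 10.8 TPM over all genes. Drd5, the D5 receptor gene, averaged 3.80 ± 0.427 TPM, with 48.6% of its exon bases overlapping another annotated gene, and Drd3 and Drd4 were not analysed here. Th, the rate-limiting enzyme of dopamine synthesis, had 10.7, 12.8, 12.7 and 10.05 TPM. The dopamine transporter gene Slc6a3 averaged 0.989 ± 0.164 TPM. Maoa, an enzyme that breaks dopamine down, averaged 18.6 ± 1.03 TPM.

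Genes for making and moving GABA were high. Of 7 in the table, 5 reached 100 TPM, and the median was 180 TPM. Gad2 and Gad1, the 2 enzymes that make GABA, averaged 330.5 ± 26.5 TPM and 122 ± 3.71 TPM. GABA-A receptor subunits had a median of 34.8 TPM over the 14 in the table. Gabra5 and Gabra4, of receptors outside synapses, averaged 174 ± 18.2 TPM and 165 ± 11.3 TPM. Gabra2, an alpha subunit prominent in the juvenile synapse, averaged 49.6 ± 6.68 TPM. Control 2 was the lowest library for 12 of the 14 subunits, against 30.7% of all genes. Slc12a5, the chloride exporter KCC2 that makes GABA inhibitory as neurons mature, had 106, 110, 123 and 108 TPM. Slc12a2, the importer NKCC1, had 25.8, 23.0, 22.1 and 26.0 TPM. The exporter was the higher in 4 of 4 libraries, with a log2 ratio of 2.21 ± 0.20.

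In TPM, glutamate receptor genes were led by auxiliary subunits, an order that depends on the length correction. Cnih2 and Cacng4, which assist AMPA receptors, averaged 308 ± 22.7 TPM and 294 ± 30.0 TPM. Neto2, which assists kainate receptors, averaged 263 ± 44.0 TPM. On the deposited signal without length, the receptor subunit gene Grin2b was above them. Its mean signal was 7510, against 5828 for Neto2, 3804 for Cacng4 and 1529 for Cnih2. Gria1, an AMPA receptor subunit, had 155, 164, 184 and 149.9 TPM. Gria2, the subunit that blocks calcium entry, had 78.6, 53.6, 72.2 and 74.9 TPM. The log2 ratio of Gria2 over Gria1 was -1.24 ± 0.30 per length and 0.13 on the deposited signal without length, so the order of these subunits depends on the length correction. Grin2b, the juvenile NMDA receptor subunit, had 95.8, 77.2, 80.9 and 79.5 TPM. Grin2a, which replaces it with age in many brain regions, had 12.6, 12.9, 11.4 and 13.9 TPM. Grin2a was the lower in 4 of 4 libraries, with a log2 ratio of Grin2a over Grin2b of -2.71 ± 0.20. Grm5, the metabotropic receptor that couples to calcium release, averaged 109 ± 16.5 TPM, and Grm2, a presynaptic one, averaged 0.687 ± 0.276 TPM.

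Nicotinic, serotonin and opioid receptor genes were mostly low, and the CB1 receptor gene was high. Muscarinic receptor genes were uneven: the 4 in the table had a median of 43.4 TPM and lay between 8.61 and 128 TPM. Chrm1, the M1 receptor of medium spiny neurons, averaged 77.7 ± 8.52 TPM, and the 6 of 8 nicotinic subunits in the table had a median of 3.78 TPM. Htr1b and Htr2c led the serotonin receptors at 53.7 ± 7.51 TPM and 44.8 ± 4.11 TPM, while the median of the 12 receptor genes was 5.08 TPM. Cnr1, the CB1 cannabinoid receptor gene, had 257, 268, 210 and 283 TPM. Among opioid receptors, Oprk1 (kappa) averaged 14.7 ± 2.43 TPM, Oprd1 (delta) 4.93 ± 0.868 TPM and Oprm1 (mu) 0.850 ± 0.298 TPM. The mu receptor is known for its dense striatal patches, and its gene stood lowest of the 3 here. That level rests on few reads (29, 21, 30 and 15 in control 1 to 4) divided by an exon length of 8037 bases. Oprl1, a further receptor gene of the list, averaged 19.0 ± 2.66 TPM. Peptide genes were high, with 8 of the 13 other neuropeptide and secretory granule genes in the table at 100 TPM or more. Scg5, a chaperone of peptide processing, averaged 378 ± 27.4 TPM, and Nts, the neurotensin gene, averaged 133 ± 14.7 TPM.

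**Figure D4:**
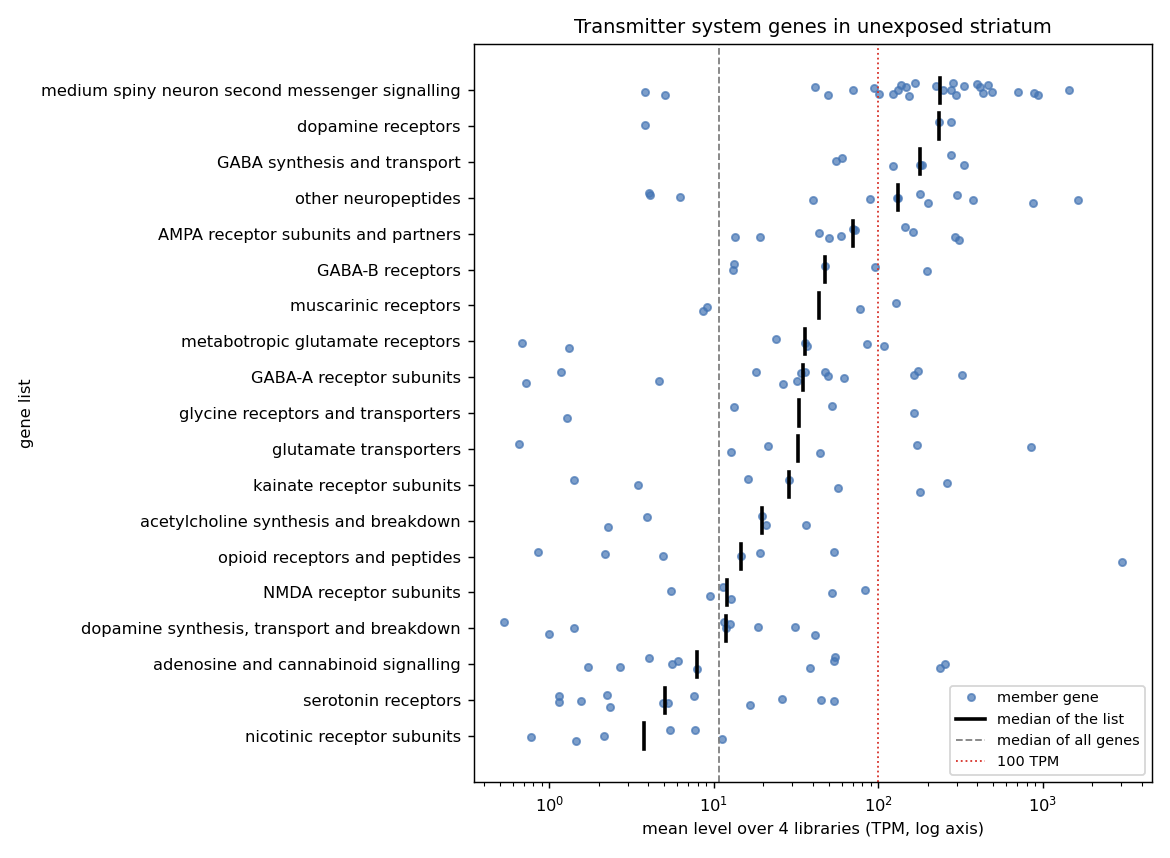
Mean level over the 4 control libraries (TPM, log axis) of each member gene (points) of 19 transmitter lists, with each list's median (black line), the median of all genes (dashed) and 100 TPM (dotted). Second-messenger genes and dopamine receptors have the highest medians, 236 and 233 TPM, and nicotinic subunits the lowest, 3.78 TPM.

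Activity-regulated genes were led by the Egr family. Egr1, an immediate early transcription factor, had 147, 169, 201 and 212 TPM, and Egr3 averaged 145 ± 9.60 TPM. Fos and Fosb, subunits of the AP-1 factor, averaged 3.015 ± 0.478 TPM and 2.35 ± 0.627 TPM. Npas4, a factor induced by calcium entry into neurons, had 17.3, 34.4, 24.5 and 41.0 TPM and differed 2-fold. In all 3 of the 19 genes did, against 7.13% of all genes. Among these 3, Fosb did so at a mean signal of 53.6, with a highest library 2.06 times the lowest. At a mean signal of 50 to 100, 3.25% of genes differed 2-fold.

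RNA encoded by mitochondria made up 21.2, 21.4, 19.7 and 21.8% of the signal of the genes in the table in control 1 to 4, a mean of 21.0 ± 0.916%. The 95% Wilson interval of each share is within 0.0267 percentage points of it and covers counting error only. Mitochondrial mRNAs held 16.3 ± 0.717% and ribosomal RNAs 4.66 ± 0.737%, which were highest in control 1 at 5.57%. Of the 13 mitochondrial mRNAs, 7 were in the table and the other 6 were not analysed here, so the share is not that of all mitochondrial RNA. The highest was mt-Nd1, of respiratory complex I, at 126094 TPM, and the lowest mt-Nd6, encoded on the other strand, at 33.8 TPM. Because these short genes take 45.4% of all TPM, leaving them out of the total would multiply nuclear levels by 1.83 and keep their order within a library. The glycolysis genes had a median of 33.4 TPM, led by Aldoa at 489 ± 44.3 TPM. Control 2 was the highest library for 15 of these 16 genes, against 31.5% of all genes.

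The signal was spread over many genes. From 511 to 592 genes held 50% of it in each library, and without mitochondrial genes 1071 to 1109 did. Among the highest nuclear genes with a known product were Cst3, a protease inhibitor secreted by glia, at 5870 ± 899 TPM, Penk, Cox6a1 (a subunit of cytochrome c oxidase) at 2391 ± 328 TPM, Pcp4 (a calmodulin regulator of striatal neurons) at 2385 ± 329 TPM, Cpe (which trims neuropeptide precursors) at 2296 ± 27.1 TPM and Npy. Of the 15 highest nuclear genes, 8 are of other kinds: 6 processed pseudogenes, the lincRNA Gm42418 and the miRNA gene Mir5125. Reads of such short or repeated sequences can belong to a near-identical copy elsewhere, so these 8 levels are uncertain. Gm42418 took 1.46, 1.53, 0.929 and 0.941% of the signal in control 1 to 4, and 99.5% of its exon bases overlap other annotated genes.

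Replicate libraries were alike in rank. Spearman's rho between libraries was 0.981 to 0.990 across 11574 genes with a mean signal of at least 50, a description since genes are not replicates. The 3 pairs with control 2 had 0.981 to 0.983, and the other 3 pairs 0.988 to 0.990. Every pair of libraries differed beyond counting error, the chi-square of their reads being 4.71 to 9.35 times its degrees of freedom. Repeat libraries of the same RNA could also differ by that much, so the chi-square shows only that no pair holds the same reads. Xist and Y-linked RNAs, given below, separate control 1 and 3 from control 2 and 4, so libraries across these sets do not come from the same RNA. The median coefficient of variation fell with level, from 28.4% for genes with a mean signal under 20 to 7.34% in the class with the highest signal. Among the 11574 better-read genes, 128 or 1.11% had a highest library at least 2 times the lowest.

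**Figure D5:**
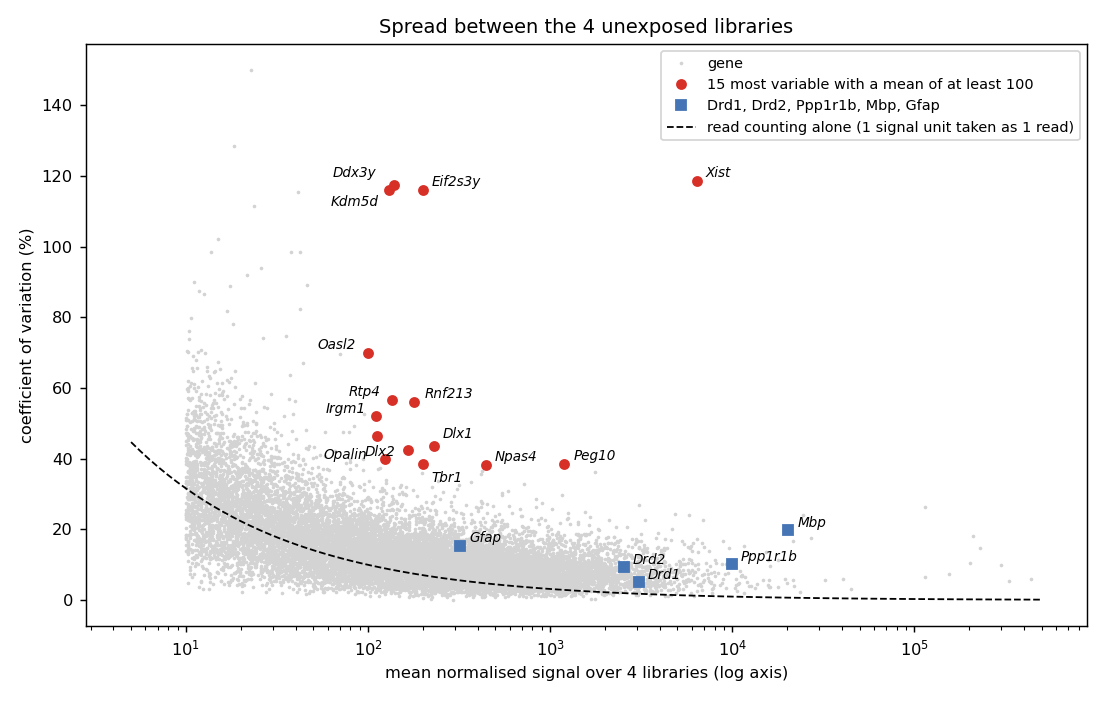
Coefficient of variation over the 4 control libraries (percent) against mean deposited signal (log axis), a grey point per gene, with the 15 most variable genes of a mean signal of at least 100 in red, the 5 defining markers as blue squares and the spread that read counting alone gives as a dashed line. The spread falls with level, and among the red points Xist, Ddx3y, Eif2s3y and Kdm5d stand highest.

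The most variable well-read genes fell into a few kinds. Xist, the RNA that silences an X chromosome in females, had a signal of 14892, 4.13, 10604 and 0.983 in control 1 to 4. The Y-linked genes Ddx3y, Eif2s3y and Kdm5d had the opposite pattern, with Eif2s3y at 0, 367, 0 and 429.6. Control 1 and 3 therefore carried the Xist RNA and control 2 and 4 the Y-linked RNAs, and the labels give no sex. Oasl2, Rtp4, Irgm1 and Rnf213, each known to be induced by interferon, were also among the 15, and each was highest in control 4. Interferon-induced genes were not among the lists, so nothing is said of them as a group. Oasl2, an antiviral protein gene, had a signal of 36.3, 97.0, 69.2 and 199. Others of the 15 were the cortical gene Tbr1, the young-neuron genes Dlx1 and Dlx2, the myelin gene Opalin, the activity gene Npas4 and Peg10, an imprinted gene derived from a retrotransposon. Peg10 had a signal of 1290, 859, 1810 and 824.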

How the data were processed

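Striatal RNA (NucleoSpin RNA II) was turned into libraries by the Lexogen SENSE total RNA protocol and read on a NextSeq500, per the labels' protocols. The mm10 build, Bowtie2 (version 2.3.2.2) and DESeq2 (version 2.1.8.3) are listed in the submitters' processing notes. Which counter, annotation, strand setting and gene filter were used is not given in the sources used here. Overlapping genes cannot be told apart if strand was ignored. The values the authors deposited are a normalised signal: whole reads per gene divided by a size factor, since all control values are whole multiples of a step within 0.001. The 11 columns of other samples were not used.

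From these, reads were recovered, and TPM was computed as signal per kilobase of union exon length (GENCODE M21, GRCm38, the assembly of mm10; all 15569 symbols matched), scaled to 1e+06 per library. Spread was counted as a highest library at least 2 times the lowest on signal + 1, and as an adjusted p under 0.05 in a chi-square homogeneity test on reads, which was first tested on simulated data. A floor of 3 reads corresponds to a signal of 2.95 to 3.19; reads have no molecular identifiers, so depth covers counting error only. For a list's deviation, each member's log2(signal + 1) had its 4-library mean subtracted and members were averaged. Ratios of gene pairs add 1 to the signal before length scaling.

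The text names the 5 markers, members of 45 lists (424 of 468 genes in the table; the others were not analysed here), the 15 highest nuclear genes and the 15 most variable genes with a mean signal of at least 100. Members, lists and pairs were chosen with earlier results of these data known. Some members that the rule takes are not reported here. Alternatives changed gene length, the ranked genes, pseudocount, scaling (edgeR 4.0.16 TMM) and left out each library. Python 3.11.15, numpy 2.4.6, pandas 2.3.3, scipy 1.17.1 and R 4.3.3 were used.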

Additional observations from a re-analysis of the deposited data

Results flagged for a closer look

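In each group of 4 libraries the highest or lowest library was compared with the rest: a gap to the nearest library above Dixon's 95% critical share of the whole range marks it as apart. Of 277 gene levels, list deviations and pair ratios examined, 22 were marked, and chance alone marks about 1 in 20. The library standing apart was control 1 for 5, control 2 for 7, control 3 for 8 and control 4 for 2. Gene levels are in TPM, and list deviations use the deposited signal. On the deposited signal itself, an alternative added after seeing the data, 4 of the 17 marked genes stood apart in the same library (Ttr, Ccna2, Grik1 and Htr4), and 1 of the 8 in control 3. No cause was tested.

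Among striatal genes, Ppp1r1b stood apart in control 2 at 1044 TPM, the other libraries having 886 to 902 TPM. Gnal stood apart in control 3 at 441 TPM and Rarb in control 2 at 199.8 TPM, its lowest. The log2 ratio of Drd1 over Drd2 stood apart in control 1 at -0.081, and Rasd2 was lowest there at 461 TPM.

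Control 3 was highest for Abat, the GABA transaminase gene, at 297 TPM, for Cnih2 at 342 TPM and for the astrocytic GABA transporter gene Slc6a11 at 60.8 TPM. It was also highest for the low genes Chrna3 (2.56 TPM), Htr4 (2.06 TPM), Gabre (1.36 TPM) and F5 (0.950 TPM).

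Control 2 was highest for Ly6c1, a surface protein gene of endothelium, at 27.7 TPM, and lowest for the cyclin gene Ccna2 at 5.01 TPM. Its list deviation stood apart for immature neurons (-0.62), for dopamine synthesis, transport and breakdown (0.13) and for glycolysis (0.19). Control 1 was lowest for the pteridine reductase gene Qdpr at 39.9 TPM, the other libraries having 41.8 to 41.9 TPM. It was also lowest for the glycine transporter gene Slc6a9 at 12.1 TPM, against 13.5 to 13.6 TPM, and for the cortical list, at -0.62. Neither gene stood apart on the deposited signal. Control 4 was highest for Ttr at 16.7 TPM and lowest for the kainate receptor gene Grik1 at 0.903 TPM.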

How the results depend on the processing

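No paired analysis was possible because there is 1 group of libraries. Ranking by the deposited signal without length moved the median percentile of medium spiny neuron genes to 98.7, of indirect-pathway genes to 75.1, of cortical genes to 53.2, of oligodendrocyte genes to 82.2 and of astrocyte genes to 87.9. Ranking only genes with a mean signal of at least 50 gave 96.3, 72.7, 23.5, 89.4 and 85.8 for these lists and 74.2 for direct-pathway genes, and ranking protein-coding genes only gave 97.5 for medium spiny neuron genes. The mitochondrial share was 45.4% of TPM in place of 21.0% of signal. The 1110 genes with a 2-fold spread became 128 at a mean signal of at least 50 and 607 with a pseudocount of 5, and 596 to 814 without 1 library, the lowest without control 2. The 4980 genes varying beyond counting error became 2294 to 4471 without 1 library, again lowest without control 2. With the longest transcript as length, log2 ratios became -2.72 (Tac1 over Penk), -2.46 (Grin2a over Grin2b), 1.77 (Slc12a5 over Slc12a2), -2.39 (Slc17a7 over Slc32a1), 0.84 (Gnal over Gnas) and -0.78 (Gria2 over Gria1). Without length, Drd1 over Drd2 reversed to 0.27 and Gria2 over Gria1 to 0.13, while Tac1 over Penk was -2.27, Grin2a over Grin2b -3.18, Slc12a5 over Slc12a2 1.65, Mbp over Gfap 5.97 and Slc17a7 over Slc32a1 -2.25. These shifts follow from the lengths put in. Without any 1 library, no pair ratio changed direction. The count of list members with a 2-fold spread without each library was added after seeing the data. Depth limits the genes under a signal of 20, whose median coefficient of variation is 28.4%.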

Other observations

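Further receptor systems were measured beside those above. Glrb, the beta subunit of the glycine receptor, averaged 166 ± 8.23 TPM, and Glra2, its juvenile alpha subunit, averaged 52.5 ± 3.17 TPM. Gabbr1 and Gabbr2, the paired subunits of the GABA-B receptor, averaged 198 ± 8.21 TPM and 47.8 ± 5.19 TPM. Adora1, the adenosine A1 receptor gene, averaged 38.6 ± 1.28 TPM. Mgll, which breaks down the cannabinoid 2-arachidonoylglycerol, averaged 53.5 ± 4.18 TPM, and Dagla, which makes it, averaged 54.5 ± 3.58 TPM. Homer1, a postsynaptic scaffold gene, averaged 44.0 ± 6.42 TPM. Meningeal and fibroblast genes were low, with a median of 3.32 TPM, and 7 of 8 were highest in control 2.

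Some genes that every cell uses were listed at low levels beside processed copies at higher ones. Gapdh, the glycolytic enzyme often used as a reference gene, had 4.66, 5.62, 5.27 and 5.05 TPM and ranked 10856th. Pgam1, another glycolytic enzyme gene, averaged 2.11 ± 0.807 TPM. Of 115 genes named as a pseudogene copy whose parent gene was in the table, 79 had a higher TPM than the parent. Oaz1-ps averaged 356 TPM and its parent Oaz1 3.75 TPM, and Gpx4-ps2 averaged 275 TPM and Gpx4 3.75 TPM. How reads that match several places were assigned is not given in the sources used here, so levels of genes with near-identical copies are uncertain, and the cause of these values was not tested.

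Levels also differed by gene structure. Among nuclear protein-coding genes, the median was 6.40 TPM for 799 genes whose longest exon is under 20% of their longest transcript. It was between 10.3 and 13.6 TPM in the other 4 classes of that share. As TPM is itself divided by exon length, such differences may follow in part from the measure, which was not tested. The 2733 genes with the most CG dinucleotides in the 250 bases before their start had a median of 14.6 TPM, and the 2733 with the fewest 7.11 TPM.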
